A study of Saccharomyces cerevisiae with 6 samples.

Results

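The genes described here encode proteins of the mitochondrial ribosome of Saccharomyces cerevisiae. They are the genes of the array table whose standard name is MRPL, MRPS, RSM or MRP followed by a number. Of 67 such names MRP8 was left out, which left 66 of the 6362 genes measured. The ribosomal names in the RefSeq synonyms placed 38 of them in the large subunit and 28 in the small subunit. RSM22 has no such name and was put in the small subunit by its RSM name, and MRP35 was put in the large subunit as bL35m. The rule used names and no measured value.

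The mitochondrial ribosome translates the few messenger RNAs of mitochondrial DNA, most of which encode core subunits of the respiratory chain and the ATP synthase. Almost all of its proteins are encoded in the nucleus, made in the cytosol and imported, while its RNAs and the small subunit protein Var1 come from the mitochondrial genome. Some of its proteins have a counterpart in the bacterial ribosome and others are specific to mitochondria.

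The response to compound 089 was measured in 3 haploid strains of mating type α, all of which carry his3, leu2, lys2 and ura3. The erg6 deletion strain (erg6::kanMX4) lacks the sterol methyltransferase of late ergosterol synthesis, and the snq2 deletion strain (snq2::kanMX) lacks a drug efflux transporter of the plasma membrane. The third is their parental strain, BY4742. In each, cells kept for 4 h with 0.2 mM 089 in glucose-based rich medium at 28 °C were set against untreated cells of the same strain on a 2-colour array, with 2 biological replicates per strain. Cy5 marked the treated cells on each of the 6 arrays, and a dye effect specific to a gene therefore cannot be told apart from a response.

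Values are given as the log2 ratio of treated to untreated cells. That direction and the base 2 are likely but not stated, and every sign below would turn if the direction were the other one. A ratio gives no level, so genes cannot be ordered by abundance, and in a bulk culture fewer responding cells cannot be told apart from a smaller response per cell. A gene passed the test at an adjusted p of 0.05 in limma, and only genes that passed are said to have risen or fallen. Spots without a gene passed often as well, in 72.3% of cases in the erg6 deletion, 40.6% in the snq2 deletion and 43.2% in the parental response, and passing is therefore no proof of a changed transcript. These spots lay above 0, with a median log2 ratio of 1.76 in the erg6 deletion, 0.45 in the snq2 deletion and 0.57 in the parental response, beside fitted medians of -0.11, -0.03 and -0.02 for all genes. What part this shift has in the rises of genes was not tested. In the erg6 and snq2 deletion responses 0 of the 66 genes lay outside the central 95% of those spots, beside 3.03% and 5.44% of all genes. In the parental response MRPL27 and RSM18 did, beside 3.96% of all genes. Errors after ± are the fit's standard errors (n = 2 arrays per strain).

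The mitoribosomal genes moved in both directions in each strain. In the erg6 deletion strain 7 rose, 26 fell and 33 did not pass, so that 50.0% were called, where 54.7% of all genes were called (23.2% higher and 31.5% lower). With each array centred on its own median, which moved all genes up by 0.108 and 0.107 on the erg6 deletion arrays, the split was 11 risen and 18 fallen, beside 27.4% of all genes higher and 24.8% lower. A fit to the erg6 deletion arrays alone called 13 of the 66, beside 30.6% of all genes. In the snq2 deletion strain 22 rose and 7 fell, beside 51.5% of all genes called (25.3% higher and 26.2% lower). In the parental strain 14 rose and 18 fell, beside 54.0% of all genes called (27.3% higher and 26.7% lower). Without snq2 deletion replicate 1 or 2 the snq2 deletion strain had 16 or 11 calls, with 0 and 1 of them lower, beside 33.1% or 26.3% of all genes called. Without parental replicate 1 or 2 the parental strain had 17 or 19 calls, beside 30.1% or 33.8% of all genes.

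The responses were small. The median size of the fitted log2 ratio, regardless of sign, was 0.31 for the 66 genes in the erg6 deletion strain, 0.28 in the snq2 deletion strain and 0.34 in the parental strain, beside 0.43 for all genes in the erg6 deletion strain, 0.40 in the snq2 deletion strain and 0.44 in the parental strain. No mitoribosomal gene passed with a change of at least 2-fold in the erg6 deletion strain, where 11.1% of all genes did. Both genes that did so in the snq2 deletion strain, MRPL20 and MRPL28, were higher, beside 14.8% of all genes. In the parental strain 4 genes rose and 4 fell by at least 2-fold, beside 15.5% of all genes.

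The median of the 66 log2 ratios was -0.17 on both erg6 deletion arrays, 0.14 and 0.21 on the snq2 deletion arrays, and -0.07 and -0.03 on the parental arrays. The medians of all genes on these arrays were -0.11 and -0.11, -0.03 and -0.01, and -0.02 and -0.02. The mitoribosomal genes thus lay above the array's centre on both snq2 deletion arrays. There 44 and 46 of the 66 had a positive log2 ratio, beside 3033 and 3135 of all 6362 genes. On the erg6 deletion arrays 24 and 24 had one, beside 2777 and 2776 of all genes. On the parental arrays 23 and 30 had one, beside 3079 and 3101 of all genes.

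**Figure D1:**
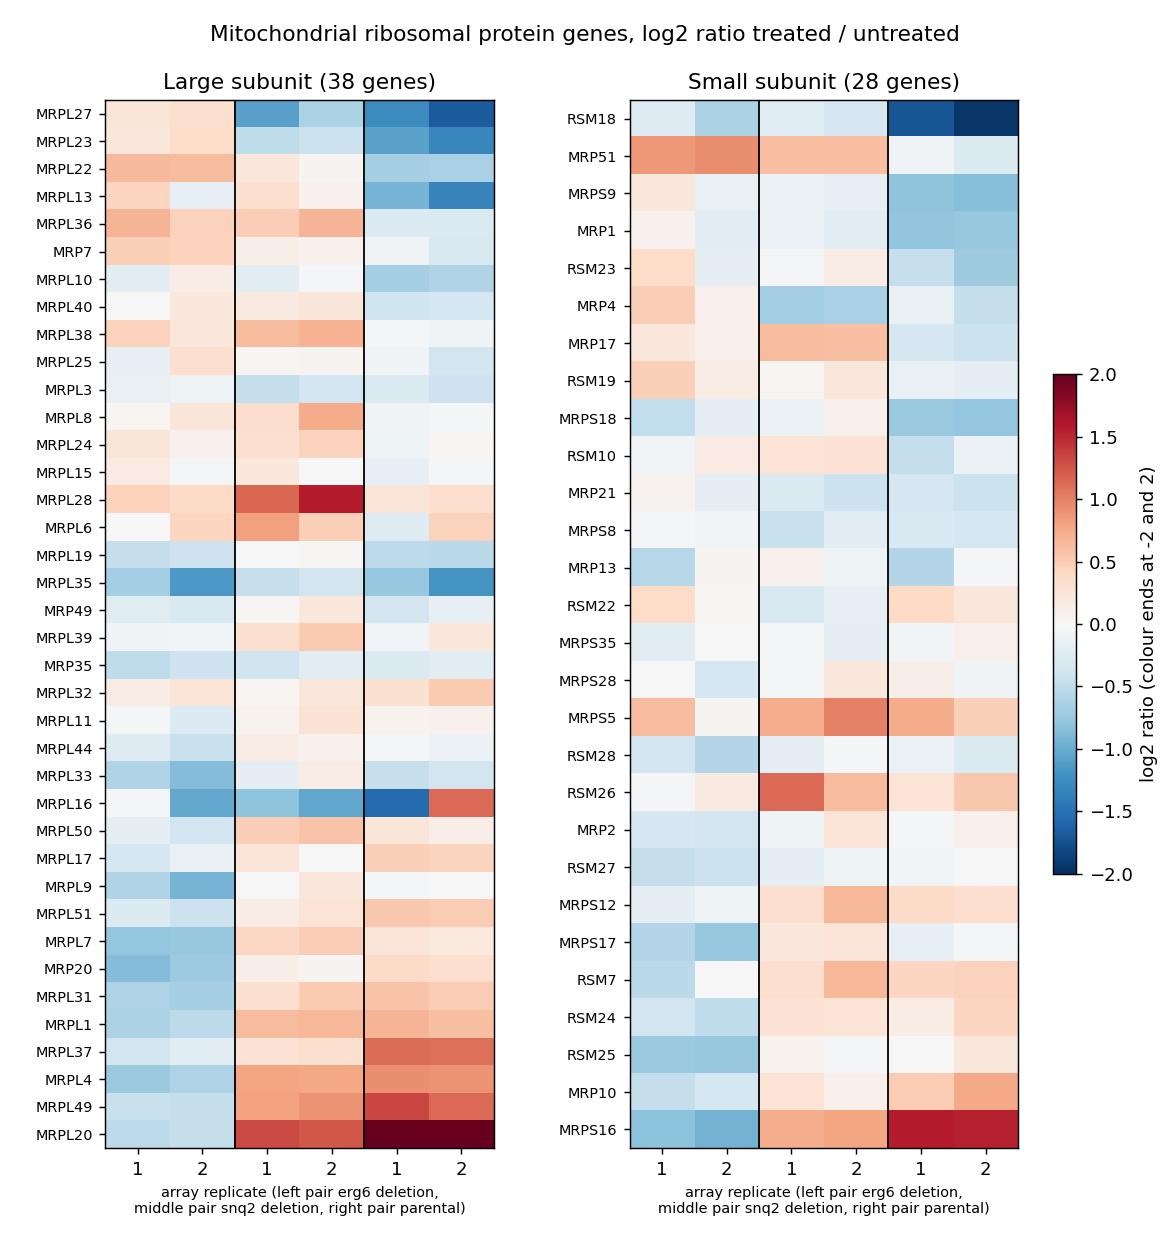
Log2 ratio of treated over untreated cells for each of the 66 mitochondrial ribosomal protein genes (rows) on each of the 6 arrays (columns), with the large subunit on the left and the small subunit on the right. Rows are ordered by the erg6 deletion minus parental difference, highest at the top, and MRPL20 and MRPS16 close the 2 panels, blue in the erg6 deletion strain and red in the other 2 strains.

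The large subunit had 6 risen and 16 fallen genes of 38 in the erg6 deletion strain, 15 and 4 in the snq2 deletion strain, and 10 and 10 in the parental strain. The small subunit had 1 risen and 10 fallen genes of 28 in the erg6 deletion strain, 7 and 3 in the snq2 deletion strain, and 4 and 8 in the parental strain. The called shares were 57.9%, 50.0% and 52.6% of the large and 39.3%, 35.7% and 42.9% of the small subunit, in that order of strains. Of all genes 23.2% rose and 31.5% fell in the erg6 deletion strain, 25.3% and 26.2% in the snq2 deletion strain, and 27.3% and 26.7% in the parental strain. With centred arrays the small subunit had 4 risen and 6 fallen genes in the erg6 deletion strain, beside 27.4% of all genes higher and 24.8% lower. On each array the median of the large subunit was set against that of the small subunit. The difference of these medians, large minus small, was -0.06 and -0.03 on the erg6 deletion arrays, 0.19 and 0.10 on the snq2 deletion arrays, and 0.03 and 0.02 on the parental arrays. On the snq2 deletion arrays the subunits differed by less than the interquartile range of either subunit on the same array (0.39 and 0.50 for the large and 0.43 and 0.52 for the small subunit). That range describes the spread of single genes and not the error of a difference of medians, and no test was made of the large minus small difference. As a difference of means in place of medians it was -0.03 in the erg6 deletion, 0.0914 in the snq2 deletion and 0.0945 in the parental strain.

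**Figure D2:**
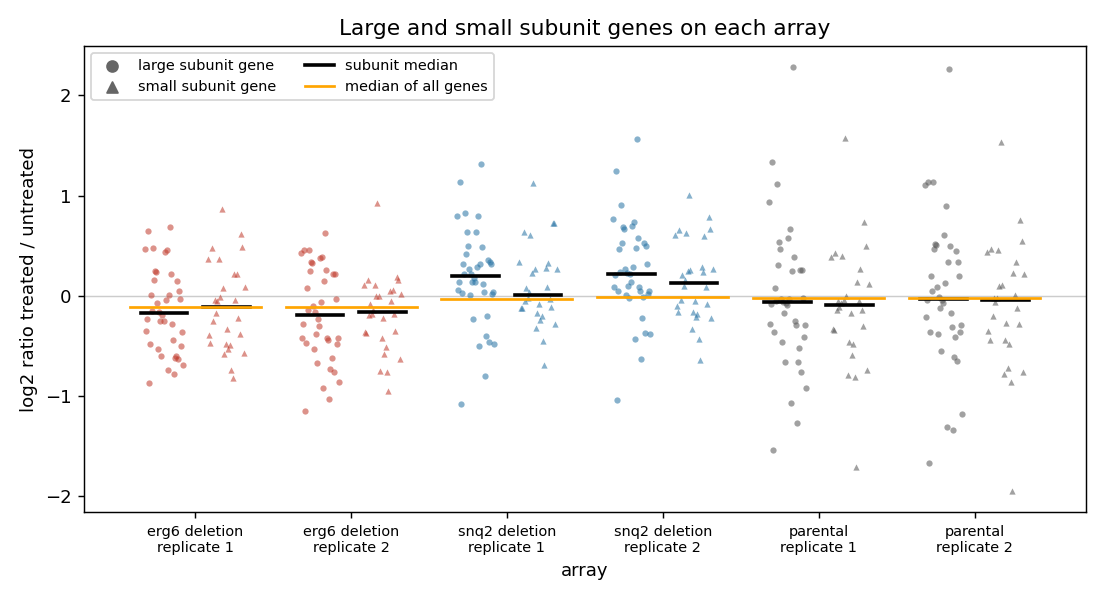
Log2 ratios of the 38 large subunit genes (circles) and the 28 small subunit genes (triangles) on each array, with the median of each subunit (black bar) and of all genes (orange line). Both subunit medians lie above the median of all genes on the snq2 deletion arrays, and the 2 subunits overlap on every array.

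Grouped by descent, 41 of the 66 proteins have a bacterial counterpart and 24 are specific to mitochondria. Of those with a counterpart, 6 rose and 15 fell in the erg6 deletion strain, 17 rose and 5 fell in the snq2 deletion strain, and 8 rose and 12 fell in the parental strain. Of those specific to mitochondria, 1 rose and 11 fell in the erg6 deletion strain, 5 rose and 2 fell in the snq2 deletion strain, and 6 rose and 6 fell in the parental strain. With centred arrays the erg6 deletion split was 10 risen and 11 fallen genes with a counterpart and 1 and 7 specific to mitochondria. The 1 riser among the mitochondria-specific genes of the erg6 deletion strain was MRPL28, whose value of 0.42 ± 0.12 there (adjusted p = 0.0305) failed in 6 alternatives, among them the absence of either erg6 deletion or either parental array (up to adjusted p = 0.122). Without centring, 0 of the 10 mitochondria-specific genes of the small subunit rose in that strain and 5 fell. Of the 14 in the large subunit, 1 rose and 6 fell. Of the genes with a counterpart, 1 rose and 5 fell of 17 in the small subunit, and 5 and 10 of 24 in the large subunit. Of all genes 23.2% rose and 31.5% fell there, or 27.4% and 24.8% with centred arrays. In the snq2 deletion strain 25.3% of all genes rose and 26.2% fell, and in the parental strain 27.3% and 26.7%.

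Across the 66 genes, the erg6 deletion and parental responses correlated at r = -0.29, beside r = 0.03 across all genes. The snq2 deletion and parental responses correlated at r = 0.65, beside 0.44 across all genes, and the erg6 and snq2 deletion responses at r = 0.07, beside 0.27. These strain responses share no array, the points are genes of 1 complex measured on the same slides, and the values are given as a description. Genes called in both the erg6 deletion and the parental strain numbered 17, of which 12 went in opposite directions, or 18.2% of the 66 beside 18.4% of all genes. Of the 15 genes called in both the snq2 deletion and the parental strain, 9 rose and 5 fell in both, and 1, MRP17, went in opposite directions, or 1.52% of the 66 beside 6.4% of all genes. The erg6 and snq2 deletion strains called 10 of 66 in opposite directions, or 15.2% beside 11.9% of all genes, and 9 of these fell in the erg6 deletion strain and rose in the snq2 deletion strain.

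Of the 66 genes, 55 passed in at least 1 strain and 11 in none. The 11 were MRP13, MRP49, MRPL11, MRPL15, MRPL16, MRPL25, MRPS28, MRPS35, RSM10, RSM19 and RSM22, or 16.7% of the genes beside 15.3% of all genes. Of the 66, 0 passed in 1 direction in all 3 strains, beside 7.98% of all genes. Some missed this in 1 strain near the threshold. MRPL35 fell in the erg6 deletion and parental strains and had -0.42 ± 0.15 in the snq2 deletion strain (adjusted p = 0.0705). MRP35 fell in both deletion strains and had -0.25 ± 0.09 in the parental strain (adjusted p = 0.0565). MRPL28 rose in both deletion strains and had 0.30 ± 0.12 in the parental strain (adjusted p = 0.0844). Such misses over all genes were not counted. Only 8 passed in all 3 strains (20.8% of all genes did). Of those 8, 7 fell in the erg6 deletion strain and rose in both other strains, a pattern that 5.41% of all genes had. The eighth, MRPL23, rose in the erg6 deletion strain and fell in the other 2, but its rise of 0.30 ± 0.10 (adjusted p = 0.0496) failed in 10 alternatives, among them the absence of any 1 array (up to adjusted p = 0.251). A fall in the erg6 deletion strain alone was called for 8 genes, or 12.1% beside 9.24% of all genes, and a rise in the snq2 deletion strain alone for 6, or 9.09% beside 2.51%. A fall in the parental strain alone was called for 6, or 9.09% beside 4.5%, and a fall in the erg6 deletion and parental strains with no call in the snq2 deletion strain for 5, or 7.58% beside 3.14%. The patterns set beside all genes were the most frequent among the 66, so shares above those of all genes follow in part from that choice. Calls behind these patterns also failed in some alternatives, among them those of RSM26, RSM23 and RSM18 below.

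**Figure D3:**
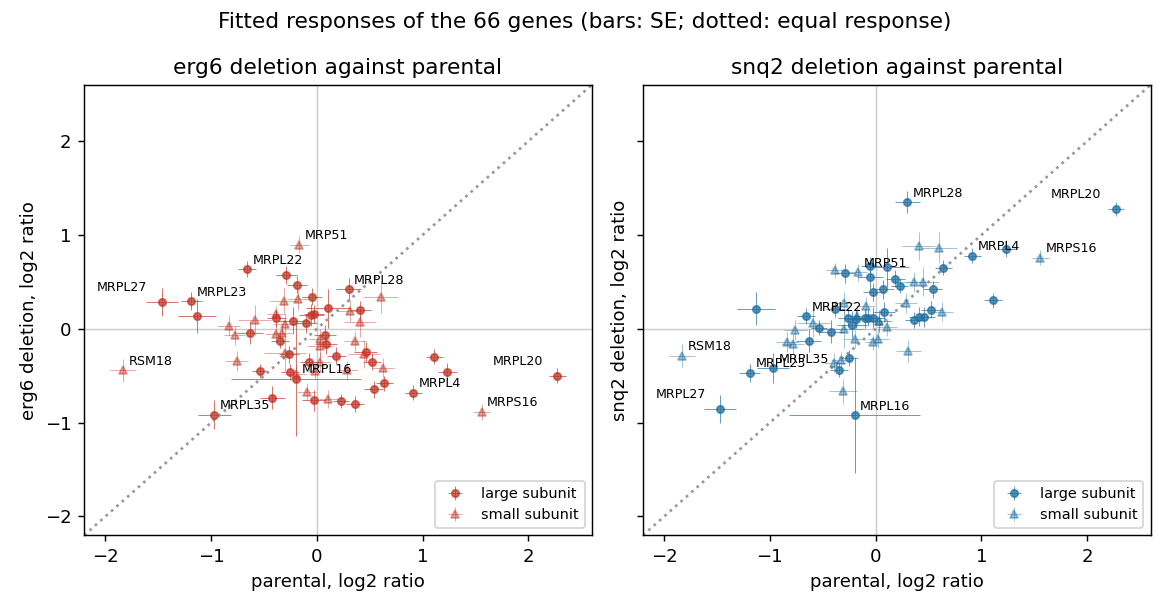
Fitted log2 ratios of the 66 genes in the erg6 deletion strain (left, vertical axis) and the snq2 deletion strain (right, vertical axis) against the parental strain (horizontal axis), with standard errors as bars and equal responses as a dotted line. The erg6 deletion values slope against the parental values (r = -0.29) and the snq2 deletion values follow them (r = 0.65), and MRPL16 has the widest bars.

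The 7 genes that fell in the erg6 deletion strain and rose in both others were MRPL1, MRPL4, MRPL20, MRPL31, MRPL37 and MRPL49 of the large subunit and MRPS16 of the small subunit. They were grouped after their values were seen. Their 7 log2 ratios lay between -0.95 and -0.23 on the erg6 deletion arrays. They lay between 0.29 and 1.31 on the snq2 deletion arrays, and between 0.51 and 2.28 on the parental arrays. The genes were grouped by calls on opposite sides of 0, so this separation of the erg6 deletion arrays follows largely from the selection. Of the 5 of them with values below, MRPL20, MRPS16, MRPL49, MRPL37 and MRPL4, MRPL37 was the least stable in its calls. Its erg6 deletion value, -0.29 ± 0.08 (adjusted p = 0.0277), failed in 8 alternatives, among them centred arrays, where it was -0.19, and quantile-normalized arrays (0.0267 to 0.169). Its snq2 deletion value, 0.30 ± 0.08, failed without any 1 of the parental or snq2 deletion arrays (0.0199 to 0.15).

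MRPL20 (YKR085C) encodes mL58, a large subunit protein specific to mitochondria, and it had the highest parental value of the 66 genes. Its log2 ratios were -0.53 and -0.47 on the erg6 deletion arrays, 1.31 and 1.24 on the snq2 deletion arrays, and 2.28 and 2.27 on the parental arrays. The 3 strains did not overlap. The fit gave -0.50 ± 0.08 in the erg6 deletion strain (adjusted p = 0.00423), 1.28 ± 0.08 in the snq2 deletion strain (adjusted p = 0.000286) and 2.27 ± 0.08 in the parental strain (adjusted p = 6.62e-05). The erg6 deletion response was lower than the parental response by a difference of -2.77 ± 0.11 (adjusted p = 0.000138). The snq2 deletion response differed from the parental response by -0.997 ± 0.11 (adjusted p = 0.00243), a call that quantile normalization ended, with a difference of -0.32 (adjusted p = 0.117, over a range of 0.0013 to 0.117). Its fall in the erg6 deletion strain failed in a fit to that strain alone (up to adjusted p = 0.0527).

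MRPS16 (YPL013C) encodes bS16m, a small subunit protein with a bacterial counterpart. Its log2 ratios were -0.82 and -0.95 on the erg6 deletion arrays, 0.73 and 0.79 on the snq2 deletion arrays, and 1.58 and 1.54 on the parental arrays. As for MRPL20, the arrays of the 3 strains did not overlap and the parental arrays were highest. It fell by 0.88 ± 0.08 in the erg6 deletion strain (adjusted p = 0.000975) and rose by 0.76 ± 0.08 in the snq2 deletion strain and by 1.56 ± 0.08 in the parental strain. The difference from the parental response was -2.44 ± 0.12 for the erg6 deletion (adjusted p = 0.000172) and -0.80 ± 0.12 for the snq2 deletion (adjusted p = 0.00526), or -0.49 with quantile normalization (adjusted p = 0.0221).

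MRPL49 encodes bL21m and MRPL37 encodes mL54, both of the large subunit. MRPL49 had log2 ratios of -0.44 and -0.48 on the erg6 deletion arrays, 0.80 and 0.91 on the snq2 deletion arrays, and 1.33 and 1.14 on the parental arrays. MRPL37 had -0.36 and -0.23 on the erg6 deletion arrays, 0.29 and 0.32 on the snq2 deletion arrays, and 1.12 and 1.10 on the parental arrays. Both were lowest in the erg6 deletion strain and highest in the parental strain. The erg6 deletion minus parental difference was -1.69 ± 0.13 for MRPL49 (adjusted p = 0.000391) and -1.41 ± 0.12 for MRPL37 (adjusted p = 0.000459). The snq2 deletion minus parental difference passed for MRPL37 (-0.81 ± 0.12, adjusted p = 0.00507) and not for MRPL49 (-0.38 ± 0.13, adjusted p = 0.0629), where array weights brought it past the threshold (adjusted p = 0.0486). The fall of MRPL49 in the erg6 deletion strain, -0.46 ± 0.09, failed in a fit to that strain alone (up to adjusted p = 0.059).

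MRPL4 (uL29m) and MRP20 (uL23m) encode proteins at the exit of the tunnel through which new chains leave the large subunit. MRPL4 had log2 ratios of -0.74 and -0.62 on the erg6 deletion arrays, 0.79 and 0.77 on the snq2 deletion arrays, and 0.93 and 0.90 on the parental arrays. MRP20 had -0.87 and -0.73 on the erg6 deletion arrays, 0.14 and 0.05 on the snq2 deletion arrays, and 0.39 and 0.34 on the parental arrays. Both fell in the erg6 deletion strain, by 0.68 ± 0.08 for MRPL4 (adjusted p = 0.00191) and by 0.80 ± 0.08 for MRP20 (adjusted p = 0.0014). In the snq2 deletion strain MRPL4 rose by 0.78 ± 0.08 (adjusted p = 0.00112) and MRP20 did not pass (0.09 ± 0.08). The erg6 deletion minus parental difference was -1.59 ± 0.11 for MRPL4 (adjusted p = 0.000349) and -1.16 ± 0.12 for MRP20 (adjusted p = 0.000873). The snq2 deletion minus parental difference did not pass for either, at -0.13 ± 0.11 and -0.27 ± 0.12. The parental rise of MRP20, 0.36 ± 0.08, was lost without either parental array (adjusted p between 0.00675 and 0.138 over the alternatives).

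MRPL22 (uL22m), whose protein lines the same tunnel, went the other way. Its log2 ratios were 0.65 and 0.63 on the erg6 deletion arrays, 0.22 and 0.05 on the snq2 deletion arrays, and -0.66 and -0.65 on the parental arrays. It rose by 0.64 ± 0.08 in the erg6 deletion strain (adjusted p = 0.00261), gave 0.13 ± 0.08 in the snq2 deletion strain, which did not pass, and fell by 0.66 ± 0.08 in the parental strain (adjusted p = 0.00192). Both differences from the parental response were positive, 1.30 ± 0.12 for the erg6 deletion (adjusted p = 0.000622) and 0.79 ± 0.12 for the snq2 deletion (adjusted p = 0.00594).

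Among the other large subunit genes, MRPL27, MRPL23 and MRPL13 were lowest in the parental strain. MRPL27, which encodes mL41, had log2 ratios of 0.25 and 0.33 on the erg6 deletion arrays, -1.08 and -0.63 on the snq2 deletion arrays, and -1.27 and -1.67 on the parental arrays. MRPL23, which encodes uL13m, had 0.22 and 0.37 on the erg6 deletion arrays, -0.50 and -0.44 on the snq2 deletion arrays, and -1.07 and -1.31 on the parental arrays. In both genes the erg6 deletion arrays alone were above 0. MRPL13, which encodes mL50, had 0.43 and -0.16 on the erg6 deletion arrays, 0.34 and 0.09 on the snq2 deletion arrays, and -0.92 and -1.34 on the parental arrays. The erg6 deletion minus parental difference was 1.75 ± 0.21 for MRPL27 (adjusted p = 0.00152), 1.48 ± 0.14 for MRPL23 (adjusted p = 0.000655) and 1.27 ± 0.26 for MRPL13 (adjusted p = 0.00886). The snq2 deletion minus parental difference was 0.61 ± 0.21 for MRPL27, which did not pass, 0.72 ± 0.14 for MRPL23 (adjusted p = 0.0127) and 1.35 ± 0.26 for MRPL13 (adjusted p = 0.0118). Without parental replicate 2 or either snq2 deletion array, the snq2 deletion differences of MRPL13 (adjusted p between 0.00409 and 0.0684) and MRPL23 (0.00818 and 0.0757) were lost. The falls of MRPL23 and MRPL27 in the snq2 deletion strain were lost without either array of that strain for MRPL23 (0.00852 to 0.0941), and without replicate 1 or with quantile normalization for MRPL27 (0.00145 to 0.0657).

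RSM18 (YER050C), which encodes the small subunit protein bS18m, had the lowest parental value of the 66 genes. Its log2 ratios were -0.26 and -0.63 on the erg6 deletion arrays, -0.24 and -0.33 on the snq2 deletion arrays, and -1.71 and -1.95 on the parental arrays. The deletion strains overlapped with each other and lay above the parental strain. It fell by 0.44 ± 0.12 in the erg6 deletion strain (adjusted p = 0.0287), had -0.29 ± 0.12 in the snq2 deletion strain, which did not pass, and fell by 1.83 ± 0.12 in the parental strain (adjusted p = 0.000284). The difference from the parental response was 1.39 ± 0.17 for the erg6 deletion (adjusted p = 0.00167) and 1.54 ± 0.17 for the snq2 deletion (adjusted p = 0.0025). With quantile normalization the parental value was -2.77 and the 2 differences were 2.37 and 2.46 in the same order. The fall in the erg6 deletion strain failed in 7 alternatives, among them centred and quantile-normalized arrays and the absence of erg6 deletion replicate 2, where it was -0.26 (0.0182 to 0.192).

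Several genes were higher in both deletion strains than in the parental strain. MRP51 encodes bS1m, a small subunit protein that in yeast is tied to the translation of mitochondrial COX messenger RNAs. It had log2 ratios of 0.87 and 0.92 on the erg6 deletion arrays, 0.60 and 0.60 on the snq2 deletion arrays, and -0.07 and -0.27 on the parental arrays. It rose by 0.90 ± 0.09 in the erg6 deletion strain (adjusted p = 0.00117), the highest fitted value of the 66 genes there, and by 0.60 ± 0.09 in the snq2 deletion strain (adjusted p = 0.00339), and did not pass in the parental strain (-0.17 ± 0.09). MRPL36, which encodes bL31m of the large subunit, had 0.68 and 0.46 on the erg6 deletion arrays, 0.50 and 0.68 on the snq2 deletion arrays, and -0.29 and -0.29 on the parental arrays. The 2 deletion strains overlapped for MRPL36, at 0.57 ± 0.10 and 0.59 ± 0.10. Their differences from the parental response were 0.86 ± 0.14 for the erg6 deletion (adjusted p = 0.00402) and 0.88 ± 0.14 for the snq2 deletion (adjusted p = 0.00685). MRPL36 lost its rise in the snq2 deletion strain without replicate 2 of that strain (adjusted p between 0.00337 and 0.0664). Its rise in the erg6 deletion strain was lost in a fit to that strain alone (0.00335 to 0.0537). MRPL36 did not pass in the parental strain (-0.29 ± 0.10, adjusted p = 0.0527), where it passed in 5 alternatives, among them quantile normalization and the absence of either erg6 deletion array.

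MRPL28 and MRP17 were higher in the snq2 deletion strain. MRPL28, which encodes the large subunit protein mL40, had log2 ratios of 0.45 and 0.39 on the erg6 deletion arrays, 1.14 and 1.56 on the snq2 deletion arrays, and 0.26 and 0.34 on the parental arrays. It rose by 1.35 ± 0.12 in the snq2 deletion strain (adjusted p = 0.000692), and its difference from the parental response was 1.05 ± 0.17 (adjusted p = 0.0072), lost without parental replicate 1 (adjusted p between 0.00428 and 0.0505). MRP17, which encodes bS6m of the small subunit, had 0.22 and 0.11 on the erg6 deletion arrays, 0.64 and 0.61 on the snq2 deletion arrays, and -0.33 and -0.44 on the parental arrays. It rose by 0.62 ± 0.08 in the snq2 deletion strain (adjusted p = 0.00245) and fell by 0.39 ± 0.08 in the parental strain (adjusted p = 0.0115). Its difference between them was 1.01 ± 0.12 (adjusted p = 0.00268). The parental fall was lost without either parental array (adjusted p between 0.00522 and 0.123), and its erg6 deletion value, 0.16 ± 0.08, passed with centred arrays (0.27, adjusted p = 0.0397).

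MRPL35 and MRPL7 were among the lowest genes of the erg6 deletion strain. MRPL35, which encodes mL38, had log2 ratios of -0.69 and -1.15 on the erg6 deletion arrays, -0.46 and -0.37 on the snq2 deletion arrays, and -0.76 and -1.18 on the parental arrays, so that the erg6 deletion and parental arrays overlapped. It fell by 0.92 ± 0.15 in the erg6 deletion strain (adjusted p = 0.00534) and by 0.97 ± 0.15 in the parental strain (adjusted p = 0.00412). Its snq2 deletion value, -0.42 ± 0.15, did not pass (adjusted p = 0.0705). In a fit to that strain alone it passed (adjusted p = 0.0144). MRPL7, which encodes uL5m, had -0.78 and -0.76 on the erg6 deletion arrays, 0.42 and 0.49 on the snq2 deletion arrays, and 0.26 and 0.19 on the parental arrays. It fell by 0.77 ± 0.08 in the erg6 deletion strain (adjusted p = 0.00131) and rose by 0.46 ± 0.08 in the snq2 deletion strain (adjusted p = 0.00595), and its parental value of 0.23 ± 0.08 did not pass. The rise of MRPL7 was lost without snq2 deletion replicate 2 (adjusted p between 0.0045 and 0.0633), and its parental value passed with centred arrays (0.25, adjusted p = 0.0405) and with array weights (adjusted p = 0.0314). MRP7, which encodes bL27m of the large subunit, was higher in the erg6 deletion strain, with 0.48 and 0.46 there, 0.12 and 0.09 in the snq2 deletion strain and -0.06 and -0.31 in the parental strain. It rose by 0.47 ± 0.09 in the erg6 deletion strain (adjusted p = 0.00883), a call lost in a fit to that strain alone (adjusted p between 0.00492 and 0.0569).

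Proteins of the stalk base, which receives translation factors, were uL10m (MRPL11) and uL11m (MRPL19). MRPL11 had -0.16 ± 0.10 in the erg6 deletion strain, 0.18 ± 0.10 in the snq2 deletion strain and 0.08 ± 0.10 in the parental strain and passed in none. MRPL19 fell by 0.45 ± 0.08 in the erg6 deletion strain (adjusted p = 0.00555, up to 0.0608 in a fit to that strain alone) and by 0.54 ± 0.08 in the parental strain (adjusted p = 0.00289), and had 0.01 ± 0.08 in the snq2 deletion strain. MRPL32 (bL32m), a large subunit protein that a mitochondrial protease matures before assembly, had 0.20 ± 0.10 and 0.13 ± 0.10 in the erg6 and snq2 deletion strains, which did not pass. It rose by 0.41 ± 0.10 in the parental strain, which failed without either parental array (adjusted p between 0.00914 and 0.179), and it passed in the erg6 deletion strain when arrays were centred (0.31, adjusted p = 0.0436).

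MRPL16 (uL16m) had the largest difference between replicates of the 66 genes in both the erg6 deletion and the parental strain. Its log2 ratios were -0.03 and -1.03 on the erg6 deletion arrays, -0.80 and -1.04 on the snq2 deletion arrays, and -1.53 and 1.14 on the parental arrays. The parental arrays had opposite signs. The fit gave it a standard error of 0.62 and it passed in no strain. Its snq2 deletion value, -0.92, passed without either parental array (adjusted p = 0.0437 each) and in a fit to that strain alone (adjusted p = 0.00049), over a range of 0.00049 to 0.602. Its parental value was -1.53 without parental replicate 2 (adjusted p = 0.0369). Replicates correlated across the 66 genes at r = 0.78 in the erg6 deletion strain, 0.91 in the snq2 deletion strain and 0.84 in the parental strain, beside 0.71, 0.92 and 0.90 across all genes.

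In the small subunit, MRPS12 and MRPS5 rose in the snq2 deletion and parental strains. MRPS12, the uS12m protein of the decoding site, had 0.50 ± 0.11 in the snq2 deletion strain and 0.36 ± 0.11 in the parental strain, beside -0.13 ± 0.11 in the erg6 deletion strain, which did not pass. MRPS5 (uS5m) had 0.34 ± 0.17 in the erg6 deletion strain, which did not pass, 0.86 ± 0.17 in the snq2 deletion strain and 0.60 ± 0.17 in the parental strain. The snq2 deletion calls of both genes were lost without replicate 2 of that strain (adjusted p between 0.00772 and 0.11 for MRPS12 and between 0.00073 and 0.106 for MRPS5). The parental calls were lost without either parental array (0.0168 to 0.207 for MRPS12 and 0.00723 to 0.215 for MRPS5), that of MRPS5 also without either snq2 deletion array. The erg6 deletion value of MRPS5 was 0.62 without replicate 2 of that strain, and passed (adjusted p = 0.0297). MRPS12 lies next to RSM19, a member on the same strand that passed in no strain. RSM26 and MRP1 encode paired small subunit proteins related to superoxide dismutase, mS42 and mS43. RSM26 rose by 0.88 ± 0.15 in the snq2 deletion strain, a call lost without replicate 1 of that strain (adjusted p between 0.00148 and 0.0548), and did not pass with 0.07 ± 0.15 in the erg6 deletion and 0.41 ± 0.15 in the parental strain. RSM26 passed in the parental strain with array weights (adjusted p = 0.0402) and in a fit to that strain alone (adjusted p = 0.0383). MRP1 fell by 0.78 ± 0.10 in the parental strain (adjusted p = 0.00214), and did not pass in the erg6 deletion strain (-0.07 ± 0.10) or the snq2 deletion strain (-0.16 ± 0.10). The fitted values of the 2 partners had opposite signs in each strain, both within 1 standard error of 0 in the erg6 deletion strain.

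MRP10 (mS37), a small subunit protein with a cysteine motif, had log2 ratios of -0.48 and -0.36 on the erg6 deletion arrays, 0.27 and 0.09 on the snq2 deletion arrays, and 0.50 and 0.75 on the parental arrays. Its fall of 0.42 ± 0.10 in the erg6 deletion strain was lost with centred arrays, without replicate 1 and in a fit to that strain alone (adjusted p between 0.0179 and 0.103). Its parental rise of 0.63 ± 0.10 was lost without parental replicate 2 (adjusted p between 0.00216 and 0.0604). RSM23 (mS29), a GTP-binding protein, fell by 0.59 ± 0.15 in the parental strain, which failed without any 1 of the parental or snq2 deletion arrays (adjusted p between 0.0058 and 0.195), and had 0.09 ± 0.15 and 0.07 ± 0.15 in the erg6 and snq2 deletion strains. MRP4 (uS2m) and MRPL3 (mL44) fell in the snq2 deletion strain, by 0.66 ± 0.13 and 0.43 ± 0.08, and both calls were lost without either array of that strain (up to adjusted p = 0.0868 and 0.0762). RSM22, a methyltransferase-like protein, passed in no strain in the fit, with 0.19 ± 0.12 in the erg6 deletion, -0.24 ± 0.12 in the snq2 deletion and 0.31 ± 0.12 in the parental strain. Its parental value passed without either erg6 deletion array (adjusted p = 0.0393 each) and with array weights (adjusted p = 0.0333).

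The deletion strains were then set against the parental strain across the 66 genes. The 2 comparisons share the parental arrays. The erg6 deletion minus parental difference passed for 37 genes, 17 higher and 20 lower, where 56.8% of all genes passed (25.4% higher and 31.4% lower). It passed for 22 without parental replicate 2, beside 42.6% of all genes. The snq2 deletion minus parental difference passed for 20 genes, 16 higher and 4 lower, where 39.2% of all genes passed (16.4% higher and 22.8% lower). It passed for 11 and 8 without parental replicate 1 or 2, beside 18.9% and 20.7% of all genes, and for 12 and 9 without snq2 deletion replicate 1 or 2, beside 26.6% and 19.8%. The median difference was -0.12 for the erg6 deletion, beside -0.13 for all genes, and 0.24 for the snq2 deletion, beside -0.09 for all genes. At least 2-fold differences that passed were 6 higher and 9 lower for the erg6 deletion, beside 30.2% of all genes in either direction, and 4 higher and 0 lower for the snq2 deletion, beside 17.2%.

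By subunit, the erg6 deletion minus parental difference was higher in 9 and lower in 12 large subunit genes, and higher in 8 and lower in 8 small subunit genes. Of all genes 25.4% were higher and 31.4% lower. The snq2 deletion minus parental difference was higher in 9 and lower in 2 large subunit genes, and higher in 7 and lower in 2 small subunit genes, beside 16.4% of all genes higher and 22.8% lower. The 4 lower genes were MRPL20, MRPL37, MRPS16 and RSM22. For RSM22 the difference was -0.55 ± 0.17 (adjusted p = 0.048), which was lost with the replicate number as a block and without any 1 of the parental or snq2 deletion arrays (up to adjusted p = 0.205). Set against each other, the erg6 and snq2 deletion responses differed in 29 genes, 4 higher and 25 lower in the erg6 deletion strain, where 49.6% of all genes differed (23.0% higher and 26.5% lower), and in 17 without snq2 deletion replicate 2, beside 30.7% of all genes. Of these 29, 1 was higher and 7 were lower by at least 2-fold, beside 21.3% of all genes in either direction.

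**Figure D4:**
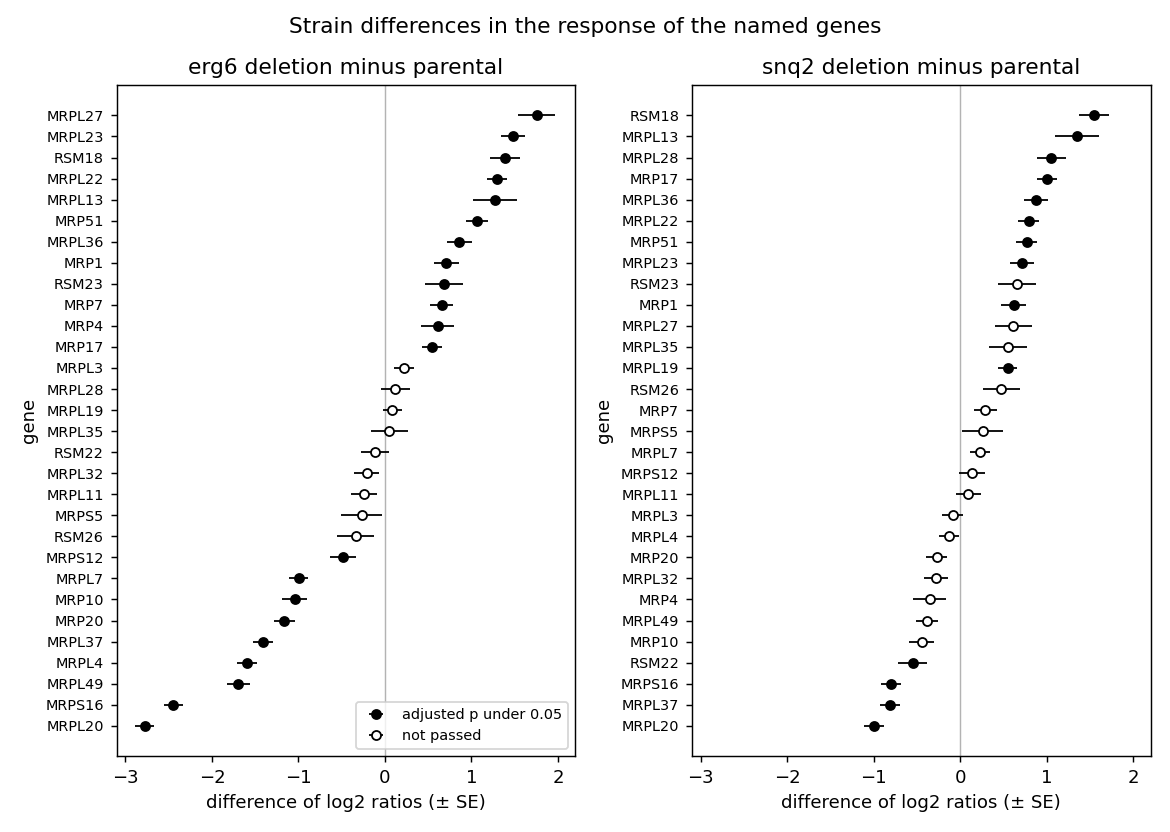
Difference of the fitted log2 ratios, erg6 deletion minus parental (left) and snq2 deletion minus parental (right), for the named genes except MRPL16, with standard errors as bars and filled points at an adjusted p under 0.05. The differences run from -2.77 (MRPL20) to 1.75 (MRPL27) on the left and from -0.997 (MRPL20) to 1.54 (RSM18) on the right.

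Of the 66 genes, 27 had both erg6 deletion arrays above both parental arrays and 29 had both below, where the arrays of 80.0% of all genes did not overlap. For the snq2 deletion against the parental strain 35 were above and 13 below, beside 76.6% of all genes. For the erg6 against the snq2 deletion 10 were above and 40 below, beside 75.6% of all genes.

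Another 14 nuclear genes encode mitoribosomal proteins under other names. Of these, 3 rose and 5 fell in the erg6 deletion strain, 4 rose and 1 fell in the snq2 deletion strain, and 3 rose and 4 fell in the parental strain. With centred arrays the erg6 deletion split was 4 and 4. YML6, which encodes a large subunit protein, had -0.32 ± 0.13 in the erg6 deletion strain, which did not pass, and rose by 1.07 ± 0.13 in the snq2 deletion strain and by 1.10 ± 0.13 in the parental strain. PET123 of the small subunit rose by 0.71 ± 0.12 in the erg6 deletion strain, had 0.30 ± 0.12 in the snq2 deletion strain, which did not pass, and fell by 0.52 ± 0.12 in the parental strain. Its rise failed in a fit to the erg6 deletion strain alone (up to adjusted p = 0.0562), its fall without either parental array (up to 0.123), and its snq2 deletion value passed without either erg6 deletion array (0.0397 each). Among the large subunit proteins of other names, MNP1 (bL12m) fell by 0.55 ± 0.10 and MRX14 (bL34m) by 0.47 ± 0.11 in the erg6 deletion strain (adjusted p = 0.00641 and 0.0157), calls that failed in a fit to that strain alone (0.0547 and 0.0593) and, for MRX14, without erg6 deletion replicate 1 (0.0808). IMG1 (bL19m) rose by 0.42 ± 0.11 in the snq2 deletion strain (adjusted p = 0.026, up to 0.187 without either array of that strain) and by 0.80 ± 0.11 in the parental strain (adjusted p = 0.00275). FYV4 (mS41) of the small subunit fell in all 3 strains, by 0.60 ± 0.085 in the erg6 deletion (adjusted p = 0.00321), 0.39 ± 0.085 in the snq2 deletion (adjusted p = 0.013) and 0.51 ± 0.085 in the parental strain (adjusted p = 0.00476). Its snq2 deletion fall failed without either array of that strain (up to 0.0929) and its parental fall without parental replicate 2 (0.0667). SWS2 (uS13m) fell by 0.62 ± 0.086 in the parental strain (adjusted p = 0.00253).

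VAR1, the small subunit gene of the mitochondrial genome, had -0.30 ± 0.12 in the erg6 deletion, 0.05 ± 0.12 in the snq2 deletion and -0.16 ± 0.12 in the parental strain and passed in none. Without erg6 deletion replicate 1 the VAR1 value in that strain was -0.47 and passed (adjusted p = 0.0333).

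The genes that work with the mitoribosome moved in both directions too. Of 12 mitochondrial translation factors, 1 rose and 7 fell in the erg6 deletion strain, 3 rose and 1 fell in the snq2 deletion strain, and 4 rose and 2 fell in the parental strain. RRF1, which recycles the ribosome after termination, fell by 0.36 ± 0.11 in the erg6 deletion strain, and rose by 0.91 ± 0.11 in the snq2 deletion strain and by 2.48 ± 0.11 in the parental strain. The fall of RRF1 failed in 7 alternatives, among them centred arrays and the absence of either erg6 deletion array (0.0305 to 0.163). MEF1, an elongation factor, fell by 0.78 ± 0.08 in the erg6 deletion strain, had -0.24 ± 0.08 in the snq2 deletion strain, which did not pass, and rose by 1.16 ± 0.08 in the parental strain. Quantile normalization brought MEF1 past the threshold in the snq2 deletion strain (-0.28, adjusted p = 0.0393). Of 9 genes of mitoribosome assembly and ribosomal RNA modification, 1 rose and 5 fell in the erg6 deletion strain, 2 rose and 4 fell in the snq2 deletion strain, and 2 rose and 4 fell in the parental strain. Of 13 mitochondrial aminoacyl-tRNA synthetases, 1 rose and 6 fell in the erg6 deletion strain, 2 rose and 1 fell in the snq2 deletion strain, and 2 rose and 2 fell in the parental strain. Of 16 translational activators, which act on single mitochondrial messenger RNAs, 2 rose and 6 fell in the erg6 deletion strain, 2 rose and 1 fell in the snq2 deletion strain, and 2 rose and 2 fell in the parental strain. Falls outnumbered rises in the erg6 deletion strain in each of these 4 lists, as they did over all genes (31.5% lower and 23.2% higher). With centred arrays the order over all genes turned, to 24.8% lower and 27.4% higher, and centred counts of the 4 lists are not given here.

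In each of these lists the 2 genes of smallest p in a strain are given, in that strain. Of the translation factors not yet described, GUF1, a GTPase related to the bacterial elongation factor 4, fell by 0.76 ± 0.10 in the erg6 deletion strain (adjusted p = 0.00258). FMT1, which formylates the initiator methionyl-tRNA, fell by 0.66 ± 0.11 in the snq2 deletion strain (adjusted p = 0.00518, up to 0.0601 without replicate 2 of that strain). Of the assembly and modification genes, CCM1, needed for the small ribosomal RNA, fell by 2.13 ± 0.18 in the erg6 deletion strain and by 2.02 ± 0.18 in the snq2 deletion strain (adjusted p = 0.000759 and 0.000648). MRM1, a methyltransferase of the large ribosomal RNA, fell by 1.01 ± 0.11 in the erg6 deletion strain (adjusted p = 0.00165), and MTG1, a GTPase, rose by 0.68 ± 0.09 in the snq2 deletion strain (adjusted p = 0.00249). In the parental strain the GTPase MTG2 fell by 0.60 ± 0.09 (adjusted p = 0.00352) and the methyltransferase MRM2 rose by 0.59 ± 0.10 (adjusted p = 0.00519). MTG2 failed without parental replicate 1 (0.053) and MRM2 without parental replicate 2 (0.0665).

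Of the translational activators, PET111, which acts on the COX2 messenger RNA, had log2 ratios of -4.08 and -4.32 on the erg6 deletion arrays and fell by 4.20 ± 0.14 in that strain (adjusted p = 6.46e-05). ATP22, which acts on the ATP6 messenger RNA, fell by 0.61 ± 0.10 in the erg6 deletion strain (adjusted p = 0.00543) and by 0.47 ± 0.10 in the snq2 deletion strain (adjusted p = 0.0137). Its first call failed in a fit to the erg6 deletion strain alone (0.0556) and its second without either snq2 deletion array (up to 0.126). MSS51, which acts on the COX1 messenger RNA, rose by 0.54 ± 0.09 in the snq2 deletion strain (adjusted p = 0.00541, up to 0.0526 without replicate 1 of that strain). CBP1, which acts on the cytochrome b messenger RNA, rose by 1.14 ± 0.12 in the parental strain (adjusted p = 0.000974), as did AEP3 by 0.71 ± 0.12 (adjusted p = 0.0046). Of the synthetases, the tyrosyl enzyme MSY1 had -1.001 ± 0.098 and the asparaginyl enzyme SLM5 -1.07 ± 0.17 in the erg6 deletion strain (adjusted p = 0.00116 and 0.00465), and both fell. In the snq2 deletion strain the threonyl enzyme MST1 rose by 1.32 ± 0.19 (adjusted p = 0.00316) and SLM5 fell by 1.04 ± 0.17 (adjusted p = 0.0053, up to 0.0765 without replicate 2 of that strain). In the parental strain the methionyl enzyme MSM1 fell by 1.24 ± 0.11 (adjusted p = 0.000539) and the aspartyl enzyme MSD1 rose by 0.68 ± 0.098 (adjusted p = 0.00293).

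Of the 3 genes of mitochondrial DNA transcription and packaging, MTF1, the transcription factor, had -0.16 ± 0.11 in the erg6 deletion strain, which did not pass, and rose by 1.02 ± 0.11 in the snq2 deletion strain and by 1.38 ± 0.11 in the parental strain. ABF2, which packages mitochondrial DNA, rose by 1.08 ± 0.11 in the erg6 deletion strain and by 0.72 ± 0.11 in the snq2 deletion strain, and fell by 1.09 ± 0.11 in the parental strain. RPO41, the RNA polymerase, fell by 0.82 ± 0.20 in the erg6 deletion strain and had -0.39 ± 0.20 and -0.45 ± 0.20 in the snq2 deletion and parental strains, which did not pass. The ABF2 rise in the snq2 deletion strain was lost without replicate 2 of that strain (up to adjusted p = 0.0597), and the RPO41 fall without erg6 deletion replicate 1, where it was -0.53, and in a fit to that strain alone (up to 0.102). In fits to their own strains alone, RPO41 passed in the snq2 deletion strain (0.0454) and the parental strain (0.0498).

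The nuclear genes of the respiratory chain and the ATP synthase, among them those of succinate dehydrogenase, which holds no product of mitochondrial translation, had medians farther from 0 than the mitoribosomal genes. Of 33 measured, 28 rose and 1 fell in the erg6 deletion strain, 17 rose and 5 fell in the snq2 deletion strain, and 2 rose and 25 fell in the parental strain. Their median fitted log2 ratio was 1.03 in the erg6 deletion strain, 0.36 in the snq2 deletion strain and -0.76 in the parental strain, beside -0.14, 0.13 and -0.06 for the mitoribosomal genes. COX7, a cytochrome c oxidase subunit, rose by 1.72 ± 0.08 in the erg6 deletion strain (adjusted p = 0.000165). SDH3, a membrane subunit of succinate dehydrogenase, rose by 1.70 ± 0.09 in the erg6 deletion strain and by 1.41 ± 0.09 in the snq2 deletion strain (adjusted p = 0.000287 and 0.000292). ATP14 of the ATP synthase fell by 1.36 ± 0.08 in the snq2 deletion strain (adjusted p = 0.000287). In the parental strain ATP2, the beta subunit of the ATP synthase, fell by 2.32 ± 0.09 (adjusted p = 8.29e-05) and RIP1, the iron-sulfur protein of the cytochrome bc1 complex, fell by 1.87 ± 0.08 (adjusted p = 0.000105, with a value of -2.87 under quantile normalization). Of 137 cytosolic ribosomal protein genes, 109 rose and 3 fell in the erg6 deletion strain, 7 rose and 72 fell in the snq2 deletion strain, and 63 rose and 26 fell in the parental strain. Their medians were 1.03, -0.33 and 0.24, and the medians of the mitoribosomal genes lay on the other side of 0 in each strain. In the erg6 deletion and parental strains the mitoribosomal medians were close to those of all genes, at -0.14 beside -0.11 and -0.06 beside -0.02. With every array centred on its median the fitted erg6 deletion median of the mitoribosomal genes was -0.035. No test was made between the lists. Over all genes 23.2% rose and 31.5% fell in the erg6 deletion strain. The shares were 25.3% and 26.2% in the snq2 deletion strain, and 27.3% and 26.7% in the parental strain. Spots without a gene had medians of 1.76, 0.45 and 0.57 in the same order of strains.

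**Figure D5:**
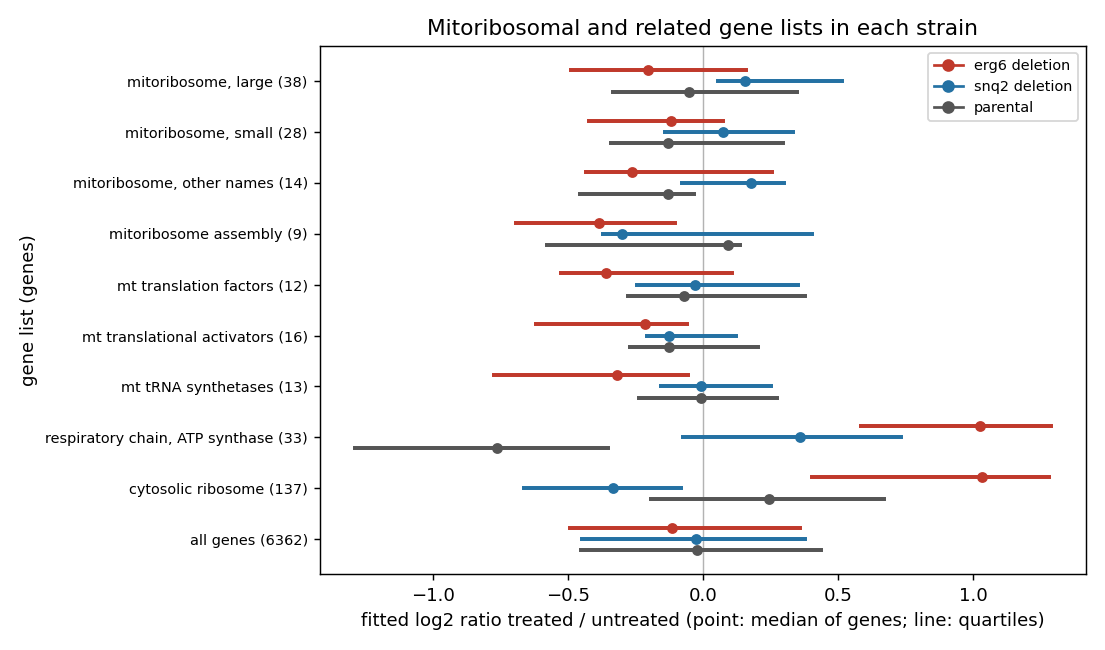
Median (point) and quartiles (line) of the fitted log2 ratios of each gene list in the erg6 deletion (red), snq2 deletion (blue) and parental (grey) strains, with the number of genes in brackets. The respiratory chain and ATP synthase genes lie at 1.03, 0.36 and -0.76, while the medians of both mitoribosomal subunits lie between -0.20 and 0.16.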

How the data were processed

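For each array the authors deposited a signed value for 7045 features (0 missing), taken here as a log2 ratio, from slides read on a GenePix scanner per the labels. How they corrected background and normalized, and which log base and direction they used, was not stated in the sources used here. Blank and empty spots (683) were kept out, which left 6362 genes. The RefSeq gene table of assembly R64 held locus tags for 5826 of them and was used for names, ribosomal names and neighbours alone. Slide and scan batches, probe sequences, promoters and proteins were not analysed here. Precision is limited by the number of arrays.

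In limma 3.58.1 (R 4.3.3), 1 mean per strain was fitted to all 6 arrays and moderated with eBayes (3 residual and 2.45 prior degrees of freedom), with Benjamini-Hochberg adjustment over the 6362 genes in each contrast. The spread was pooled over strains, and it was larger between the erg6 deletion arrays, so standard errors there can be too small.

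The members, lists and named genes were chosen with earlier results of these data known. Named genes were the 4 highest and 4 lowest members past the threshold, with arrays on one side, in each strain response and in both differences from the parental strain, and 15 members of known role. In the context lists they were the 2 of smallest p in a strain. Alternatives were centred or quantile-normalized arrays, each array left out in turn, the replicate number as a block, robust eBayes, array weights, annotated genes alone and added mitoribosomal proteins. A fit to each strain alone was chosen after seeing the data. The replicate numbers did not pair samples across strains.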

Additional observations from a re-analysis of the deposited data

Results flagged for a closer look

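Of 31 named members, the erg6 deletion response differed from the parental response in 21, of which 12 were higher, and the snq2 deletion response in 14, of which 10 were higher, beside 56.8% and 39.2% of all genes. Many of the 31 were named for being highest or lowest in these differences, so the selection fixes these counts in part. In each the difference itself was tested, in limma across all genes. The 2 comparisons share the parental arrays.

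The erg6 deletion minus parental difference of the log2 ratios was 1.75 for MRPL27, 1.48 for MRPL23, 1.39 for RSM18, 1.30 for MRPL22, 1.27 for MRPL13 and 1.06 for MRP51. It was 0.86 for MRPL36, 0.71 for MRP1, 0.68 for RSM23, 0.65 for MRP7, 0.61 for MRP4 and 0.55 for MRP17. On the lower side it was -2.77 for MRPL20, -2.44 for MRPS16, -1.69 for MRPL49, -1.59 for MRPL4, -1.41 for MRPL37, -1.16 for MRP20, -1.04 for MRP10, -0.997 for MRPL7 and -0.49 for MRPS12. Of these, MRP1 failed without parental replicate 1 (up to adjusted p = 0.0543), MRP17 and MRP7 without parental replicate 2 (0.0695 and 0.0536), and MRP4 and RSM23 without either parental array, either snq2 deletion array or erg6 deletion replicate 1 (0.174 and 0.181), where RSM23 was 0.41 without erg6 deletion replicate 1. MRPS12 failed with centred or quantile-normalized arrays and without either erg6 deletion or either parental array (0.144). MRPL20 and MRPS16 lay below the central 95% of the control spots in this difference, which ran from -2.215 to 3.194 around a median of 1.13. The share of all genes outside that range was not counted.

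The snq2 deletion minus parental difference was 1.54 for RSM18, 1.35 for MRPL13, 1.05 for MRPL28, 1.01 for MRP17, 0.88 for MRPL36, 0.79 for MRPL22, 0.77 for MRP51, 0.72 for MRPL23, 0.62 for MRP1 and 0.55 for MRPL19. On the lower side it was -0.997 for MRPL20, -0.81 for MRPL37, -0.80 for MRPS16 and -0.55 for RSM22. Of these, MRP51 failed without parental replicate 2 (0.0507), and MRP1 and MRPL19 without any 1 of the parental or snq2 deletion arrays (0.111 and 0.0807). MRPL13 and MRPL23 failed without parental replicate 2 or either snq2 deletion array (0.0684 and 0.0757), and MRPL28 without parental replicate 1 (0.0505). MRPL20 failed with quantile-normalized arrays (0.117, at -0.32), and RSM22 with the replicate number as a block and without any 1 of the parental or snq2 deletion arrays (0.205). RSM18 lay above the central 95% of the control spots in this difference, which ran from -1.937 to 1.428 around a median of -0.12. The share of all genes outside it was not counted either. Some differences passed under an alternative alone: MRPL16 without parental replicate 1 (-1.67 for erg6 deletion minus parental and -2.06 for snq2 deletion minus parental), RSM23 without either erg6 deletion array (0.66 for snq2 deletion minus parental) and MRP10 with array weights (-0.45 for the same difference).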

How the results depend on the processing

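Of the 260 values of named genes, 165 passed in the fit as reported. Of these, 77 failed under at least 1 alternative, most of them when an array was left out. Values that did not pass could change sign. The parental value of MRPL16 was -0.20 with both arrays, 1.14 without parental replicate 1 and -1.53 without replicate 2. Leaving out 1 array at a time, the number of mitoribosomal genes past the threshold was between 25 and 29 in the erg6 deletion strain (33 with all arrays), 11 and 30 in the snq2 deletion strain (29) and 17 and 35 in the parental strain (32). It was between 22 and 32 for erg6 deletion minus parental (37), 8 and 22 for snq2 deletion minus parental (20) and 17 and 25 for erg6 deletion minus snq2 deletion (29). A fit to the erg6 deletion arrays alone called 13, with 2 arrays in place of 6. With the replicate number as a block, which the numbers do not warrant as pairing, the counts were 31, 28 and 32 in the erg6 deletion, snq2 deletion and parental strains, and 35, 19 and 29 in the 3 differences in the order above.

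The erg6 deletion median over both arrays, -0.167, was -0.0592 with centred arrays, -0.106 with quantile normalization, -0.154 as a mean over genes and -0.183 with the mitoribosomal proteins of other names. The parental median, -0.0485, was -0.0794 with quantile normalization. The large minus small difference was -0.142 with the other names in the erg6 deletion strain (-0.0482 without). As a difference of means it was 0.0945 in the parental strain and 0.0914 in the snq2 deletion strain. In the parental strain it was 0.0672 with the other names (0.0208 without), on medians. The cause was not tested. Signal over background was not analysed here.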
